A study of Homo sapiens with 12 samples.

Results

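Cells of the HK-2 line exposed to a high dose of a compound labelled Nnm for 48 h were compared with vehicle control cells of 48 h, on 3 arrays each, which are 6 of the 12 arrays of the study. The genes described are the 10966 that carried at least 1 tested probe set, out of 22829 tested probe sets among 54675, and each gene is represented by 1 of them, that of highest mean level in all 12 arrays. HK-2 is an immortalised line of human proximal tubule epithelium, so every array came from 1 cell line. The medium held insulin, transferrin, selenite, hydrocortisone and EGF, and cells were treated near confluence, so the controls carry these agents too. The other 6 arrays are Nnm and control cells of 24 h, and they enter here through the shared estimate of spread. The labels call the 3 samples of a group biological replicates, and the name Nnm is used as given, since neither its dose nor its vehicle is specified further. Values are log2 expression after GCRMA, a method that corrects probe background and normalizes arrays to one another, and a change is the Nnm mean minus the control mean on that scale.

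Proximal tubule cells reabsorb most of what the kidney filters, and they live mainly from mitochondrial oxidation of fatty acids, lactate and amino acids. Mitochondria build most of their proteins from nuclear genes, import them as chains, and add a small set made on their own ribosomes. Cell lines of this tubule keep an epithelial character but commonly lose transporters of the differentiated tubule. Here all 6 epithelial markers lay above log2 4, with array means of 11.08 to 11.56 in control and 10.94 to 11.47 in Nnm. Of 12 measured proximal tubule markers only PDZK1, a scaffold of brush border transporters, lay above that level, at 11.16 in control and 11.33 in Nnm. The endocytic receptor genes LRP2 and CUBN, the water channel gene AQP1 and the brush border genes ANPEP, GGT1, MME and ALPL were under it. No measured leukocyte or distal nephron marker passed log2 4, while 2 of 4 podocyte, 3 of 7 fibroblast and 1 of 5 endothelial markers did, and 0 markers of any of these cell types were called (limma adjusted p under 0.05, and likewise in each list).

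In all, 1186 genes were called, 10.8% of those tested, of which 718 rose (6.55%) and 468 fell (4.27%). A call means an adjusted p under 0.05 in limma with Benjamini-Hochberg adjustment over all tested probe sets. The median change over all tested genes was 0.02. At least 2-fold change was seen for 367 called rises and 206 called falls, and at least 8-fold change for 19 and 5. For 41 called genes the control mean lay under log2 4 and the Nnm mean above it, and the reverse held for 10. Nnm values stood clear of all control values for 1183 of the called genes, and over all tested genes this was so for 37.6%, with Nnm above for 20.7% and below for 16.9%. Median centring of each array turned the split of called genes from 60.5% to 50.2% higher (608 higher and 603 lower). In bulk RNA, fewer cells of a kind and less RNA per cell cannot be told apart.

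Over the called genes Nnm replicate 2 changed by less than the other Nnm arrays. Among 723 called genes whose mean change in Nnm replicates 1 and 3 was at least 1, replicate 2 reached a median of 50.7% of that change, 50.9% for rises and 50.5% for falls. It reached under 25% for 45 of these genes, 25% to 75% for 545 and over 75% for 133. These shares describe called genes only, and calling favours genes in which replicate 2 moved the same way. Array weights estimated by limma for the Nnm arrays were 0.6665, 0.1964 and 4.107 for replicates 1, 2 and 3. Without Nnm replicate 2, 3089 genes were called, including 1168 of the 1186 and 1921 that were not called with all arrays. Without any other single array of 48 h the count fell, to 131 and 108 without Nnm replicates 1 and 3, and to 152, 432 and 195 without control replicates 1, 2 and 3. A set of 95 genes, 64 higher and 31 lower, was called whichever of the 6 arrays was left out. Those of them described below are called stable, and every other called gene named lost its call in at least 1 of those fits, often in most of them.

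**Figure D1:**
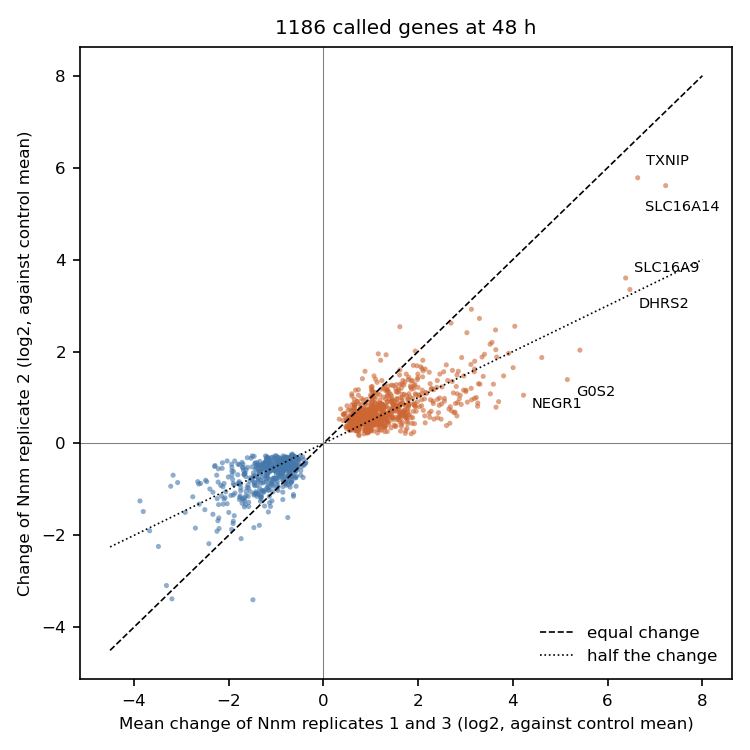
Change of Nnm replicate 2 (vertical axis) against the mean change of Nnm replicates 1 and 3 (horizontal axis), both log2 against the control mean of 48 h, for the 1186 called genes, with rises in orange, falls in blue, a dashed line at equal change and a dotted line at 0.5 times it. Where replicates 1 and 3 changed by at least 1, 545 of 723 points lie at 25% to 75% of that change, with a median of 50.7%.

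The spread behind these calls came from all 12 arrays. Fitted on the 6 arrays of 48 h alone, limma called 59 genes, and 3388 had an unadjusted p under 0.05. With a block for the replicate number, which pairs the arrays, 2509 genes were called, 22.9% of those tested, with 1448 higher (13.2%) and 1061 lower (9.68%), and all 1186 were among them. For gene groups the counts with this block are given beside the first where the number of called members differs by over 1.5 times. Counts for gene groups are to be read against 6.55% higher and 4.27% lower over all genes, and several groups lie near these shares. They include cohesin and condensin genes (8.33% higher, 0% lower) and ERK feedback genes and targets (8.33% and 4.17%). Others are the NF-kappaB pathway (9.09% and 0%) and RNA polymerase subunits (3.33% and 6.67%). Probe sets were tested if above log2 4 on at least 3 of 12 arrays. Members under that level in control could therefore mainly be called as rises. At 24 h 586 of the 1186 were called too, all in the same direction, and 1144 had the same sign. No gene passed the test of the difference between the effects at 48 h and 24 h in limma, with 724 at an unadjusted p under 0.05.

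Genes of arrestins and their regulators made up the list with the highest share of rises. The transcription factors MondoA and ChREBP bind carbohydrate response elements when sugar phosphates accumulate, and TXNIP and ARRDC4 are their textbook targets. TXNIP and the ARRDC proteins are alpha-arrestins, adaptors that bring membrane proteins to ubiquitin ligases. Of 8 tested genes of arrestins and their regulators 5 rose and 0 fell, with a median change of 1.64 against 0.02 over all genes. TXNIP read 4.22, 6.80 and 7.24 in control replicates 1 to 3 and 12.66, 11.87 and 12.78 in Nnm replicates 1 to 3, a stable rise of 6.35. Control replicate 1 was the lowest array, and the weakest Nnm array was still far above every control. ARRDC3 read 8.84, 9.39 and 9.04 in control and had an Nnm mean of 10.92 ± 0.11 (SD, n = 3), with replicate 2 at 10.79, a stable rise of 1.83 ± 0.18 (SE, adjusted p = 0.00262). Here all Nnm arrays, replicate 2 included, lay within a narrow band above the controls. ARRDC4 read 2.24, 3.05 and 2.48 in control and 6.58, 4.55 and 6.42 in Nnm, at least 3.61-fold higher (adjusted p = 0.0232). With controls under log2 4 it could mainly be called as a rise. ARRB1, a beta-arrestin that ends signalling of G protein-coupled receptors, read 6.94, 6.93 and 6.94 in control and 9.83, 7.68 and 9.35 in Nnm (change 2.02, adjusted p = 0.0212). In both genes Nnm replicate 2 lay between the groups, and the calls held in 1 of the 6 fits with an array left out, the one without Nnm replicate 2.

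The promoters of the sugar-responsive pair are shown because they hold E-box letters in different arrangements. RefSeq windows (GRCh38.p14) are 300 bases long, most of them before the gene start. In capitals is CACGAG followed 5 bases on by CACGAG, a tandem E-box, for TXNIP (chr1:145996530-145996829, minus strand) and CACGTG, a palindromic E-box, for ARRDC4 (chr15:97960453-97960752, plus strand). Both strands were searched.
TXNIP: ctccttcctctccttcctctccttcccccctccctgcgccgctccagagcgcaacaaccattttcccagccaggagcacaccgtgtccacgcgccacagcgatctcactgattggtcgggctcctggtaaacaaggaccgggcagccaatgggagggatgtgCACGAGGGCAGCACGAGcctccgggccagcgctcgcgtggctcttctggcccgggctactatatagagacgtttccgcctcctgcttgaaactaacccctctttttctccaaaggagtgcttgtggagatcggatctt
ARRDC4: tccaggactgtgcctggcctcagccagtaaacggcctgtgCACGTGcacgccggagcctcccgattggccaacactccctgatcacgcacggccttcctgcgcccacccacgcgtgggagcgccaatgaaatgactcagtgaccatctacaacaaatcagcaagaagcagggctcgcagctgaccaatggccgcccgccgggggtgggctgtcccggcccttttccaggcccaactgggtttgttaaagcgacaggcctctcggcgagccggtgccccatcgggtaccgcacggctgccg
The tandem arrangement stood in 2 of 27305 promoters (0.00732%), and in 1 of the 7 promoters found for the arrestin list, that of TXNIP. The pattern searched has the letters and spacing of the TXNIP promoter itself, so finding it there says nothing further. CACGTG stood in 7.43% of all promoters, in 10.7% of those of tested genes and in 2 of the 7.

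Among the other large rises were genes of membrane transport and trafficking. SLC44A2, a choline transporter-like protein, read 6.78, 6.77 and 7.05 in control and 10.54, 8.91 and 10.48 in Nnm, a stable rise of 3.11 ± 0.49 (adjusted p = 0.00919). REPS2, a protein of receptor endocytosis, read 4.54, 5.82 and 5.61 in control and 8.41, 8.24 and 8.48 in Nnm (change 3.06, adjusted p = 0.0186). Replicate 2 responded fully for REPS2 and by about the usual part for SLC44A2. ATP6V1E2, a subunit isoform of the vacuolar proton pump, read 3.49, 3.52 and 3.91 in control and 5.87, 4.93 and 5.92 in Nnm, a stable rise of at least 2.98-fold (adjusted p = 0.00492). CA12, a membrane-bound carbonic anhydrase, read 10.15, 9.67 and 8.62 in control and 13.24, 11.64 and 12.76 in Nnm (change 3.07, adjusted p = 0.0188). NEGR1, a cell adhesion molecule of the immunoglobulin family, read 3.45, 3.47 and 3.47 in control and 8.06, 4.52 and 7.31 in Nnm, at least 6.20-fold higher (adjusted p = 0.0283). Its Nnm arrays spread over more than 3 log2 units, with replicate 2 close to the controls. The hedgehog co-receptor gene GAS1 was near background in control (3.04, 2.99 and 2.91) and read 7.23, 5.53 and 6.82 in Nnm, a stable rise of at least 5.76-fold.

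Among the falls, several genes dropped in all Nnm arrays by a like amount. Larger falls, such as those of UCA1 (change -3.26) and KRT20 (change -3.24), are not described here. CCND2, a D-type cyclin that drives entry into S phase, read 10.66, 10.24 and 10.85 in control and 8.30, 8.73 and 8.47 in Nnm, a stable fall (change -2.08 ± 0.29, adjusted p = 0.00613). BAG1, a nucleotide exchange factor of HSP70, read 8.78, 8.70 and 8.78 in control and 7.01, 7.25 and 6.50 in Nnm (change -1.83, adjusted p = 0.00492, stable). Neither gene had an Nnm array within 1 log2 unit of a control array. REXO5, an RNA exonuclease, read 7.18, 7.30 and 7.36 in control and 5.16, 5.73 and 4.74 in Nnm (change -2.07, adjusted p = 0.00393, stable). PFKFB2, which sets the level of the glycolytic activator fructose 2,6-bisphosphate, read 7.49, 7.12 and 7.34 in control and 5.43, 5.47 and 3.81 in Nnm (change -2.42, adjusted p = 0.0134). In PFKFB2 it was replicate 3 that fell furthest, while replicates 1 and 2 were alike. MPND read 7.33, 6.63 and 7.26 in control and 3.99, 6.22 and 4.0 in Nnm (change -2.34, adjusted p = 0.0260). TENT5B fell from a control mean of 6.60 to 4.46, a stable change of -2.15, while its paralogue TENT5A, a poly(A) polymerase of the same small family, rose by 1.82. This pair was picked out after its values were seen.

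**Figure D2:**
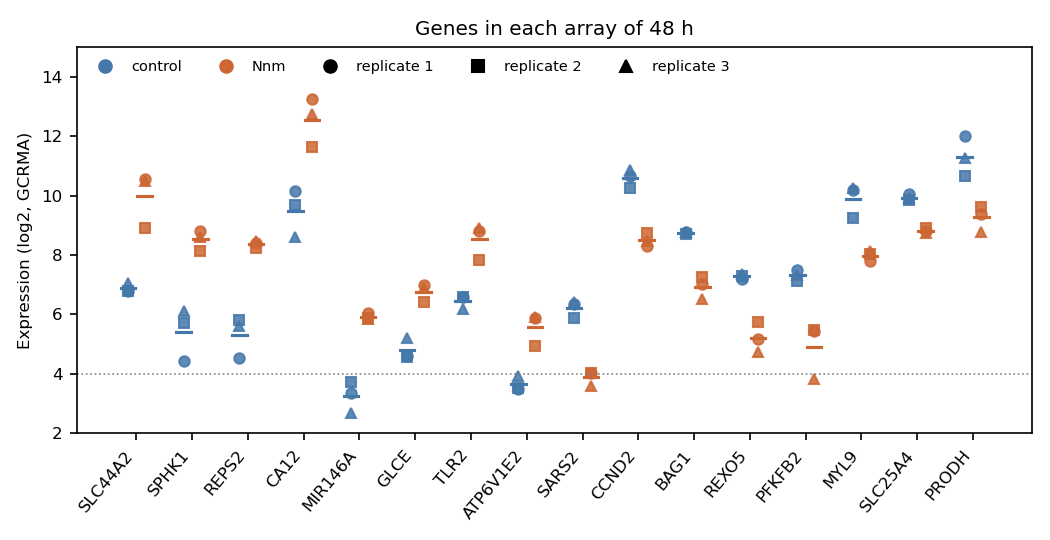
Log2 expression (vertical axis) of 16 genes on each array of 48 h, controls in blue and Nnm in orange, with the marker shape giving the replicate and a bar giving the group mean. The dotted line marks log2 4. For each of these genes all Nnm arrays lie on one side of all control arrays, and for SLC44A2 and CA12 replicate 2 is the Nnm array nearest to the controls. The genes were chosen from called genes, of which 1183 of 1186 have no overlap.

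Nuclear genes of mitochondrial protein import, which carries chains through the outer and inner membranes and folds them in the matrix, were among those that fell most often. Of 34 tested genes 12 fell and 0 rose, with a median change of -0.45. TRAP1, the mitochondrial HSP90, read 10.11, 9.94 and 10.10 in control and 8.92, 9.08 and 8.79 in Nnm, a stable fall (change -1.12 ± 0.14, adjusted p = 0.00492). TIMM50, the receptor subunit of the inner membrane translocase, changed by -1.19, the intermembrane chaperone gene TIMM13 by -0.95 and GRPEL1, which recharges matrix HSP70, by -0.95. Without single arrays the falls in this list ran from 1 to 15.

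Genes for making proteins inside mitochondria were lower as well. Of 75 mitochondrial ribosomal protein genes 12 fell and 0 rose, 25 with the block, and the median was -0.32, with -0.42, -0.20 and -0.35 in Nnm replicates 1, 2 and 3. MRPL12, a large-subunit protein that also binds the mitochondrial RNA polymerase, read 9.80, 9.30 and 9.89 in control and 7.82, 8.59 and 7.78 in Nnm (change -1.60, adjusted p = 0.0166). MRPL54 changed by -1.19, MRPL2 by -1.19 and MRPL28 by -0.95. By contrast, of 58 cytosolic ribosomal protein genes 0 fell and 1 rose, RPL39L by 1.02, with 2 in each direction at an unadjusted p under 0.05, and the sign of their median of 0.04 turned with the scaling. The difference between the 2 kinds of ribosome was not tested. Of 13 translation factors 4 fell and 1 rose, among them the elongation factors GFM1 and TUFM (changes -1.04 and -0.75), with MTRF1, a release factor, higher by 0.63. SARS2, the enzyme that charges mitochondrial serine tRNA, read 6.34, 5.88 and 6.43 in control and 4.02, 4.03 and 3.59 in Nnm, stably at least 4.66-fold lower (adjusted p = 0.00851). Replicates 1 and 2 were alike for this gene and replicate 3 was the lowest. It was 1 of 2 that fell among 15 mitochondrial tRNA synthetases, the other being RARS2 (change -1.06), and with the block 4 fell. The count for ribosomal proteins ran from 0 to 24 falls without single arrays. The letters GCGCA and GCGC 1 base apart, a form of the binding site of the factor NRF1, stood in 8 of 67 promoters of this list (11.9%), against 12.5% of promoters of tested genes.

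Respiratory chain and ATP synthase genes also had more falls than rises. Of 33 complex I subunits 9 fell and 0 rose (median -0.30), including NDUFA11 by 1.28, the iron-sulfur subunit NDUFS1 by 1.19 and the flavoprotein NDUFV1 by 0.97. Of 18 ATP synthase subunits 5 fell and 0 rose, 8 with the block while 1 rose (median -0.34). ATP5F1B, the catalytic beta subunit, read 12.93, 12.67 and 12.93 in control and 11.73, 11.95 and 11.84 in Nnm, a stable fall (change -1.01 ± 0.15, adjusted p = 0.00778). All Nnm arrays lay within 0.22 of one another for this gene. Of 48 assembly factors 6 fell and 1 rose (under the block 12 and 1). NDUFAF3, an assembly factor of complex I, changed by -1.60, BCS1L, which inserts the Rieske protein into complex III, by -1.24, and COQ3 and COQ2, enzymes of coenzyme Q synthesis, by -1.58 and -1.31. In the first of these Nnm replicate 2, at 9.10, lay nearer to the lowest control at 9.52 than to replicate 1 at 7.39. Cytochrome c oxidase subunits had 1 fall among 11, COX8A by 0.52 on the log2 scale, and 3 with the block. Leaving out single arrays gave 0 to 15 falls for complex I, 1 to 10 for ATP synthase and 0 to 15 for assembly.

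Of the enzymes that feed the chain, the tricarboxylic acid cycle had the highest share of falls, 7 of 16 with 0 rises, 10 and 1 with the block (median -0.59), and its medians of -0.63, -0.54 and -0.71 were close in all Nnm replicates. SUCLG2, the GTP-forming succinyl-CoA ligase subunit, read 10.92, 10.87 and 10.97 in control and 9.35, 10.14 and 8.66 in Nnm (change -1.54, adjusted p = 0.0215). SDHA, the flavoprotein of succinate dehydrogenase, changed by -1.17, DLD, a subunit shared by the 2-oxoacid dehydrogenases, by -1.08 and DLST by -0.98. Each kept its call in only 1 of the fits with an array left out, and the list's falls ran from 0 to 7 over them.

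At the entry to the cycle 5 of 19 genes of pyruvate and lactate handling fell and 1 rose, with 8 and 2 under the block. PDHA1, the catalytic subunit of pyruvate dehydrogenase, read 11.70, 11.66 and 11.72 in control and 10.20, 10.95 and 10.10 in Nnm (change -1.28, adjusted p = 0.0124). Its inhibitory kinases went in opposite directions. PDK1 fell from 8.93, 8.96 and 9.16 to 7.36, 7.90 and 6.88 (change -1.64, adjusted p = 0.00708, stable), and PDK4 rose from 12.16, 12.53 and 12.50 to 13.71, 13.15 and 13.65 (change 1.11, adjusted p = 0.0272). The levels of these genes come from different probe sets and were not set against each other. Of 28 genes of glucose transport and glycolysis 4 fell and 0 rose (under the block 8 and 1), and besides PFKFB2 these were the triose and phosphoglycerate enzymes TPI1, PGK1 and PGAM1, lower by 0.75, 0.67 and 0.72. In this list Nnm replicate 2 had the lowest median (-0.47, against -0.05 and -0.18), unlike in most groups. SLC2A1, the basal glucose transporter, had a change of 0.30 (adjusted p = 0.742) and LDHA one of -0.08 (adjusted p = 0.680).

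Amino acid breakdown in mitochondria counted 5 falls and 0 rises among 33 genes, and under the block 12 and 1 (median -0.52). PRODH, which starts proline oxidation, read 12.01, 10.65 and 11.27 in control and 9.39, 9.63 and 8.78 in Nnm (change -2.04, adjusted p = 0.0261). The controls themselves spread over more than 1 log2 unit for PRODH, without reaching the Nnm arrays. PCCB, of propionyl-CoA carboxylase, changed by -1.46 and MCCC2, of leucine breakdown, by -0.94. Of 18 one-carbon genes 4 fell and 0 rose, with MTHFD2L, a mitochondrial folate dehydrogenase, lower by 1.28. Of 36 mitochondrial carriers 3 fell and 4 rose, 5 and 6 with the block. SLC25A4, the ADP/ATP carrier of heart and muscle type, read 10.04, 9.85 and 9.91 in control and 8.79, 8.91 and 8.75 in Nnm, a stable fall (change -1.12 ± 0.11, adjusted p = 0.00262). The oxoglutarate carrier gene SLC25A11 changed by -1.11, while SLC25A51, the carrier of NAD into mitochondria, rose by 1.75 (adjusted p = 0.0198) and SLC25A53 at least 1.77-fold. Of 23 peroxisome genes 1 rose, GNPAT of ether lipid synthesis by 0.40, and 0 fell (4 and 0 with the block), with 4 higher and 1 lower at an unadjusted p under 0.05.

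**Figure D3:**
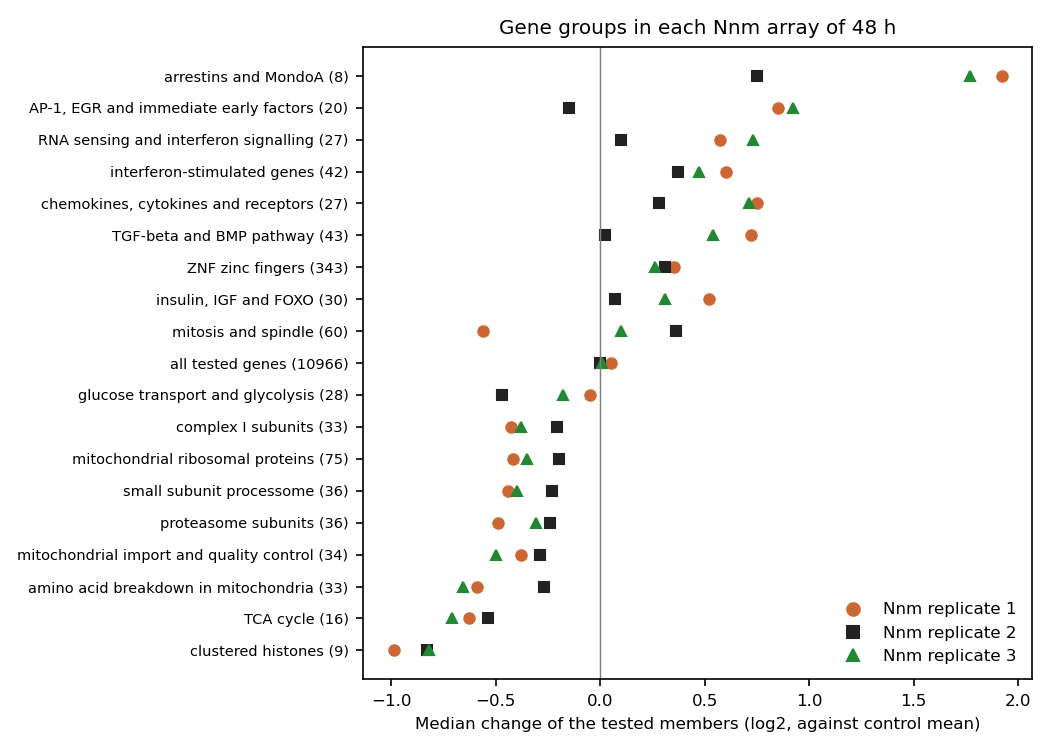
Median change of the tested members of 18 gene groups and of all tested genes (log2 against the control mean of 48 h, horizontal axis), separately for Nnm replicates 1, 2 and 3, with the number of members in brackets. The mitochondrial groups and clustered histones lie below 0 in every Nnm array, while for immediate early factors replicate 2 lies at -0.15 and the others at 0.85 and 0.92.

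Sphingolipid genes included 1 of the stable rises. Sphingosine kinases make sphingosine 1-phosphate, a lipid signal, and phosphatases return it to sphingosine. SPHK1 read 4.43, 5.70 and 6.12 in control and 8.81, 8.14 and 8.62 in Nnm, a stable rise of 3.10 ± 0.39 (adjusted p = 0.00495). Of 23 sphingolipid genes 4 rose and 0 fell (median 0.13), and the others were the phosphatase gene SGPP2 by 1.39, the alkaline ceramidase gene ACER3 by 0.96 and the ceramide kinase gene CERK by 0.95. In storage lipids, G0S2, an inhibitor of the lipase ATGL, read 8.15, 7.44 and 8.69 in control and 13.16, 9.48 and 13.34 in Nnm, and PNPLA3, a lipid droplet protein, fell by 1.58 on the log2 scale (adjusted p = 0.0199). They were the 2 genes called among 19 of lipid droplets and lipolysis, where the block gave 3 rises and 1 fall. Of 26 genes of fatty acid oxidation and carnitine 4 fell and 0 rose (median -0.36), 8 with the block, the short-chain dehydrogenase gene ACADS by 1.37 on the log2 scale.

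In the nucleus, histone genes of the chromosomal clusters had the lowest median of the lists with over 5 tested members. Only 9 of 42 listed genes were tested, at a median control level of 6.16 against 8.47 over all genes. The array labels RNA through poly(A) tails, which most transcripts of clustered histone genes do not carry, so total histone RNA was not measured. Of these 9 genes 5 fell and 0 rose (median -0.99), and the medians of -0.99, -0.83 and -0.82 in the Nnm replicates were alike. H1-2 read 4.60, 5.13 and 5.08 in control and 2.95, 3.57 and 3.77 in Nnm, at least 1.91-fold lower (adjusted p = 0.0138). H2BC12 read 10.41, 10.21 and 9.87 in control and 9.18, 9.17 and 9.18 in Nnm (change -0.99, adjusted p = 0.0117). Its Nnm arrays were nearly equal, below every control, and this gene also stands in the list of replication-independent histones. H2BC9 and H2AC25 changed by -1.39 and -1.04. Histone genes of 1 type are near-identical copies, and 4 of the 9 probe sets carry the maker's mark for probes shared between genes, so a fall cannot be assigned to a single copy with certainty. Without single arrays 1 to 8 fell. In S-phase control the G1 list had 4 rises and 4 falls among 35 genes, 8 and 6 with the block. The cyclin gene CCND2 fell, as described, while the cyclin gene CCNE2 rose by 0.92, the repressor gene E2F7 by 1.28 (stable, adjusted p = 0.00871) and the pocket protein gene RBL1 by 0.85. Mitosis and spindle genes had 3 rises and 0 falls among 60, fewer than the 10.8% over all genes, with 5 and 0 under the block and 5 and 3 at an unadjusted p under 0.05, and their medians differed between Nnm arrays (-0.56, 0.36 and 0.10). Of 24 cohesin and condensin genes 2 rose and 0 fell (5 and 0 with the block), CDCA5, which protects cohesion, by 1.11 and SMC6 by 0.66.

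Ribosome assembly in the nucleolus showed falls for both subunits. Of 36 genes of the small subunit processome 5 fell and 0 rose (median -0.34), including UTP4 and BYSL by 0.88 each, and of 39 genes of large subunit assembly 4 fell and 0 rose, 7 with the block (median -0.34), including NOP16 by 0.81 and WDR12 by 0.67. A probe set annotated to the ribosomal RNA locus RNA45SN5 measured 6.94, 6.93 and 6.96 in control and 8.41, 7.83 and 8.60 in Nnm (change 1.34, adjusted p = 0.0134). It was picked out after its value was seen, and whether it reads precursor or mature ribosomal RNA was not determined. All Nnm arrays were above the controls, and the array labels RNA through poly(A) tails, which ribosomal RNA does not normally carry. Polymerase subunits had 1 rise, POLR1D of polymerases I and III by 1.74, and 2 falls, POLR2L by 1.78 and POLR2C by 0.71, among 30 genes, 6 falls with the block. Of 36 proteasome subunits 4 fell and 1 rose (median -0.35), and under the block 16 and 1 did. The 1 rise was PSMB9, a subunit of the immunoproteasome, which read 7.77, 7.88 and 7.84 in control and 9.40, 8.54 and 9.26 in Nnm (change 1.24, adjusted p = 0.0156).

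Genes of ZNF zinc finger proteins, many of them DNA-binding repressors of the KRAB type, rose more often than genes in general. Of 466 listed 343 were tested, at a median control level of 6.72 against 8.47 over all genes. Members under log2 4 on every control array were tested only if Nnm arrays passed that level, so they could mainly be called as rises. Of the 343 tested, 55 rose and 2 fell, against 6.55% and 4.27% over all genes, and with the block 102 rose and 5 fell against 13.2% and 9.68%. The median change was 0.31, and Nnm replicates 1, 2 and 3 gave 0.35, 0.31 and 0.26, so replicate 2 did not lag in this family. ZNF709 read 4.22, 4.80 and 4.13 in control and 6.56, 6.08 and 6.17 in Nnm, a stable rise of 1.88 ± 0.22 (adjusted p = 0.00458). ZNF85 read 7.63, 8.0 and 7.96 in control and 10.28, 8.82 and 10.27 in Nnm (change 1.93, adjusted p = 0.0191). For ZNF85 replicate 2 was well short of the other Nnm arrays, though above the controls. ZNF383 and ZNF470 rose from under log2 4 to Nnm means of 5.37 and 5.50, at least 2.58-fold and 2.82-fold. Zinc finger genes lie in clusters of like sequence, and 13.4% of the family's probe sets (19.3% of those called) carry the mark for shared probes, against 6.18% of all genes, so some calls may not be independent of one another. The rises ran from 9 to 95 without single arrays.

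**Figure D4:**
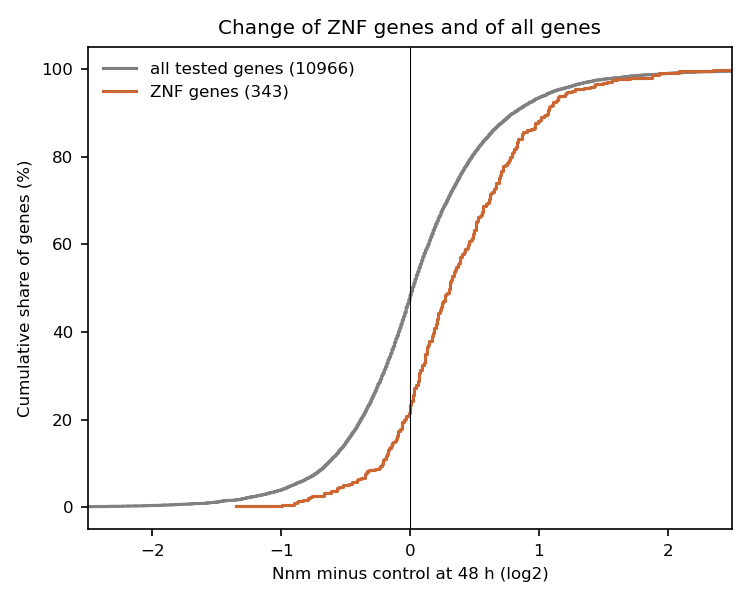
Cumulative share of genes (vertical axis, percent) up to each change at 48 h (log2, horizontal axis, drawn from -2.5 to 2.5) for the 343 ZNF genes and for all 10966 tested genes. The curve of ZNF genes lies to the right over most of its length, with a median of 0.31 against 0.02.

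Among other regulators of transcription, nuclear receptors had 4 rises and 0 falls among 20 genes, 8 with the block. They were the orphan receptor genes NR2F1 by 1.74 and NR2C2 by 1.02, the thyroid hormone receptor gene THRA by 0.83 and the clock repressor gene NR1D2 by 0.82. Enzymes of DNA methylation had 3 rises and 0 falls among 15. TET1, a methylcytosine oxidase, read 3.56, 3.63 and 3.50 in control and 7.00, 4.17 and 5.77 in Nnm, at least 3.13-fold higher (adjusted p = 0.0429). With controls under log2 4 it, too, could mainly be called as a rise. Its replicate 2 lay just above the controls. UHRF2 rose by 0.95 and the glycosylase gene MBD4 by 0.57. KDM7A, a histone demethylase gene, read 5.81, 5.26 and 5.44 in control and 9.47, 6.58 and 8.58 in Nnm (change 2.71, adjusted p = 0.0371). Among 17 histone deacetylase and sirtuin genes 0 were called in limma, with 1 higher and 2 lower at an unadjusted p under 0.05. Kelch proteins of ubiquitin ligases had 3 rises and 0 falls among 28 genes, 7 and 1 with the block, led by KLHL42 (change 2.44) and KLHL14 (change 1.94).

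Of 781 antisense RNA genes listed 116 were tested, at a median control level of 5.45 against 8.47 over all genes. A gene under log2 4 on every control array was tested only if Nnm arrays passed that level, so it could mainly be called as a rise. Of the 116 genes 15 rose and 2 fell, against 6.55% and 4.27% over all genes, an excess that this filter may partly set. With the block 25 and 7 did, against 13.2% and 9.68%. ZNF793-AS1 read 2.76, 3.49 and 3.30 in control and 7.10, 4.66 and 6.88 in Nnm, at least 4.63-fold higher (adjusted p = 0.0182), and SBF2-AS1 read 3.62, 5.31 and 4.82 in control and 7.81, 6.31 and 7.60 in Nnm (change 2.65, adjusted p = 0.0128). In both genes replicate 2 rose least. SSTR5-AS1 rose by 2.15, and ZFHX4-AS1 fell from 6.69, 7.45 and 7.74 to 3.45, 5.81 and 3.53. Long intergenic RNAs had 6 rises and 3 falls among 60 (10% and 5%), and 9 and 5 with the block. Among them LINC00205 was stably higher by 1.40 and LINC01111 at least 3.84-fold lower. Of 7 host genes of small nucleolar RNAs 3 rose and 0 fell. SNHG19 rose stably by 1.12 and SNHG32 by 1.06, and SNHG18 by 0.47.

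Genes of interferon response and innate sensing had rises and 0 falls, though most members were not called. Cells sense foreign RNA and DNA by toll-like receptors, RIG-I-like receptors and cGAS, which lead to interferon, and interferon turns on antiviral genes through the response element ISRE. Of 42 interferon-stimulated genes 12 rose and 0 fell (median 0.47, with 0.60, 0.37 and 0.47 in the Nnm replicates). OAS1, which makes the 2-5A signal that activates RNase L, read 4.20, 4.24 and 4.27 in control and 6.05, 6.05 and 6.63 in Nnm, a stable rise of 2.01 ± 0.26 (adjusted p = 0.00536). OASL read 4.21, 6.64 and 6.01 in control and 7.45, 7.63 and 7.67 in Nnm (change 1.96, adjusted p = 0.0347). The OAS1 controls agreed closely, while control replicate 1 lay far under the others for OASL. IFIT2, an RNA-binding antiviral protein, read 7.53, 8.55 and 7.74 in control and 10.33, 9.12 and 10.10 in Nnm (change 1.91, adjusted p = 0.0145). The guanylate-binding protein gene GBP2 rose by 1.35, GBP3 by 1.15, the ISG15 ligase gene HERC5 by 1.26, IFIT1 by 1.28, DDX60L by 1.26, IFI44 by 1.18 and PARP14 by 0.64. The number of rises ran from 1 to 18 without single arrays.

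RefSeq promoters (GRCh38.p14) of called interferon genes are shown because the ISRE letters, GAAA and GAAA with 2 bases between on either strand and in capitals here, recur in them. They are IFIT1 (chr10:89392373-89392672), IFI44 (chr1:78649539-78649838) and HERC5 (chr4:88456869-88457168), all on the plus strand.
IFIT1: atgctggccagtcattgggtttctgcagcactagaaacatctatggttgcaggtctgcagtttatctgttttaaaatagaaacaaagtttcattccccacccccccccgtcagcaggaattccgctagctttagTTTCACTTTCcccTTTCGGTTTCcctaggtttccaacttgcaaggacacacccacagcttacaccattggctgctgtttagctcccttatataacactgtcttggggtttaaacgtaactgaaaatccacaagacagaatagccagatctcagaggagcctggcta
IFI44: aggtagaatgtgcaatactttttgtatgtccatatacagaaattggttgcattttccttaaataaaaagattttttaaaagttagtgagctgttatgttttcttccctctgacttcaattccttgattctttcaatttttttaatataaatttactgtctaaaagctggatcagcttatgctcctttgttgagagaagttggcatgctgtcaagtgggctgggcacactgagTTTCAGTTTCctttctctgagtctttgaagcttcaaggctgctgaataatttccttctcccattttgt
HERC5: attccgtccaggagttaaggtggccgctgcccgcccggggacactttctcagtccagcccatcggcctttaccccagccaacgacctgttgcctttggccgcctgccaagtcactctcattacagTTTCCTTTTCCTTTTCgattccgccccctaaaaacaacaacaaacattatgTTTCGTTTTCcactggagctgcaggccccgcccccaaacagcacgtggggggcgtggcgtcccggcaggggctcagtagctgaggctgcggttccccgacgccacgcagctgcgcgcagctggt
Of the 36 promoters found for this list 23 (63.9%) hold the motif, and 6 of the 8 found for called members do, those of DDX60L, GBP3, HERC5, IFI44, IFIT1 and PARP14. Over 27305 promoters it stood in 3.65%, and in 2.68% of those of tested genes. The list is of textbook interferon targets, which are turned on through this element, so a high share follows from the choice of list. The HERC5 window has 3 matches, IFIT1 2 and IFI44 1. A match is a run of letters and not a measured binding site.

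Upstream, 4 of 27 genes of RNA sensing and interferon signalling rose and 0 fell, 7 and 1 with the block. TLR2, a receptor for bacterial lipoproteins, read 6.60, 6.58 and 6.19 in control and 8.82, 7.83 and 8.91 in Nnm, a stable rise of 2.06 ± 0.27 (adjusted p = 0.00527). TLR3, which senses double-stranded RNA, rose by 1.64, the DNA sensor gene CGAS by 1.54 and the interferon receptor gene IFNAR1 by 0.77. CGAS had a change of -0.07 at 24 h. Of 27 chemokines, cytokines and their receptors 6 rose and 0 fell, 12 and 2 with the block. The lymphocyte growth factor gene IL7 read 4.57, 4.78 and 4.70 in control and 7.35, 5.91 and 7.04 in Nnm (change 2.08, adjusted p = 0.0163). CCL28, a chemokine of mucosal epithelia, read 5.95, 5.69 and 6.14 in control and 7.83, 7.44 and 8.0 in Nnm, a stable rise of 1.83 (adjusted p = 0.00496), and CXCL16 rose by 1.01. For CCL28 and CXCL16 replicate 2 stood with the other Nnm arrays, and for IL7 it fell short. IL1R1, the interleukin 1 receptor, rose by 1.81 and NFKBIA, the inhibitor that NF-kappaB induces, by 0.88, 1 of 2 rises among 22 NF-kappaB pathway genes with TRAF3 (change 0.62). The chemokine gene CCL2 read 6.78, 8.37 and 6.85 in control and 4.01, 6.96 and 2.84 in Nnm, with replicate 2 inside the control range.

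**Figure D5:**
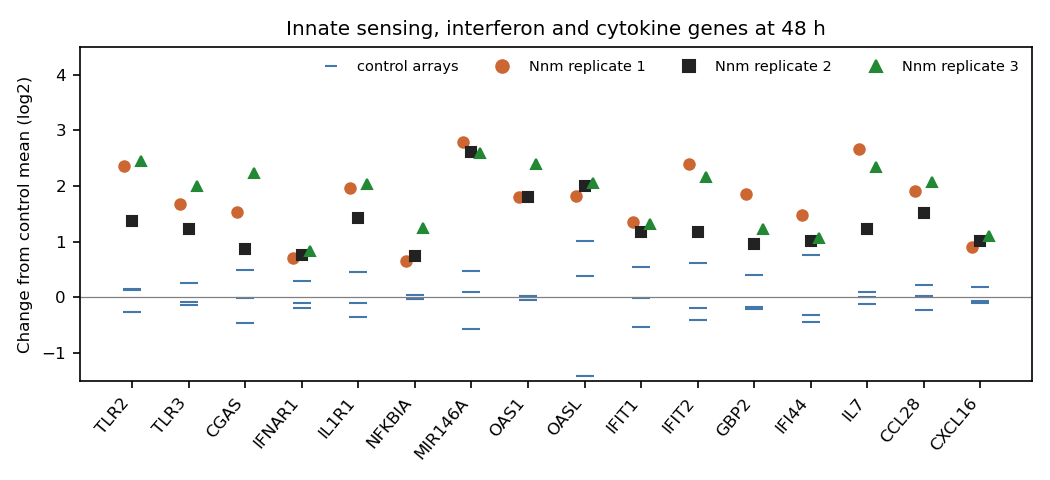
Change from the control mean of 48 h (log2, vertical axis) of 16 innate sensing, interferon and cytokine genes, for each Nnm replicate (symbols) and each control array (blue dashes). All Nnm arrays lie above all control arrays for each gene shown, and the OASL controls are the widest apart. The genes were chosen from called rises, so this separation follows from the choice. Over all tested genes Nnm lay above for 20.7%.

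The locus of miR-146a, a microRNA known to restrain toll-like and interleukin 1 receptor signalling, was among the most regular rises. The probe set annotated to MIR146A read 3.34, 3.72 and 2.68 in control and 6.04, 5.87 and 5.85 in Nnm, a stable rise of at least 3.78-fold (adjusted p = 0.00536). The Nnm arrays agreed within 0.19, with replicate 2 as high as replicate 3. Such a probe set reads a longer transcript of the locus, and the mature strands were not measured. Their RefSeq sequences are shown with the seed, bases 2 to 8 that pair with targets, in capitals (GRCh38.p14, chr5:160485372-160485393 and chr5:160485408-160485429, plus strand).
hsa-miR-146a-5p: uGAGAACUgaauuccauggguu
hsa-miR-146a-3p: cCUCUGAAauucaguucuucag
The strands have different seeds. Transcripts of the known targets of the 5p strand had changes of -0.07 for the kinase gene IRAK1 (adjusted p = 0.867) and 0.10 for the ligase gene TRAF6 (adjusted p = 0.818), with overlapping groups in both.

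Growth factor pathways showed a split between arrays. Of 15 EGF family ligands and receptors 2 rose and 1 fell, 5 and 2 with the block. ERBB3, a receptor that signals through partners of its family, read 4.67, 4.81 and 4.86 in control and 8.05, 6.08 and 8.06 in Nnm (change 2.62, adjusted p = 0.0220), the ligand gene EGF rose by 1.34 and the ligand gene TGFA fell by 0.66. The list's median came to 0.90, -0.09 and 0.76 in the Nnm replicates in turn. Of 24 ERK feedback genes and targets 2 rose and 1 fell, 5 and 2 with the block, the phosphatase gene DUSP1 by 1.05, IER3 by 1.58 and MYC lower by 0.66, with a median of -0.20 in replicate 2 against 0.66 and 0.69. Immediate early factors gave 0.85, -0.15 and 0.92 as medians in the replicates, with 2 rises and 0 falls among 20, 3 with the block, FOSL2 by 0.77 and IER5 by 1.06. In these 3 lists replicate 2 had the opposite sign to the others.

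In the TGF-beta and BMP pathway 5 of 43 genes rose and 0 fell, 13 and 1 with the block. ID3 and ID1 are inhibitors of helix-loop-helix factors and direct targets of BMP signalling. ID3 read 6.45, 6.66 and 5.90 in control and 7.98, 7.85 and 8.19 in Nnm, a stable rise of 1.67 ± 0.21 (adjusted p = 0.00492), and ID1 read 10.79, 11.06 and 10.76 in control and 11.59 to 12.20 in Nnm, a stable rise of 1.06 (adjusted p = 0.00843). Replicate 2 kept pace in both, unlike the list's median, which was 0.72, 0.02 and 0.54. The SMAD corepressor genes SKIL and TGIF1 rose by 0.79 and 0.78. Of 30 insulin, IGF and FOXO genes 4 rose and 0 fell (6 and 1 with the block), the receptor gene INSR by 1.36, its adaptor gene IRS1 by 0.96, IGFBP4 by 1.42 and BCL6 by 0.96. Of 38 WNT genes 3 rose (7.89%, against 6.55% over all genes) and 0 fell, 6 with the block. Besides the agonist gene RSPO3 (5.35, 5.20 and 5.04 in control, 10.97, 7.23 and 10.25 in Nnm) these were SHISA2, which holds back frizzled receptors, stably at least 8.87-fold, and the receptor gene FZD6 by 0.55.

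At the cell surface and in the matrix, 4 of 16 integrin genes rose and 0 fell. ITGA2, a collagen receptor chain, read 5.34, 5.04 and 4.64 in control and 7.67, 5.86 and 8.16 in Nnm (change 2.22, adjusted p = 0.0342), and ITGB5 rose by 1.06. LAMB3, a laminin chain of epithelial basement membrane, read 6.65, 6.57 and 7.17 in control and 10.50, 7.58 and 10.38 in Nnm (change 2.69, adjusted p = 0.0302), whereas the basement membrane chains LAMA1 and COL4A1 fell by 0.94 and 1.12. In all of these replicate 2 moved least. Of 41 genes of glycosaminoglycan and proteoglycan synthesis 6 rose and 4 fell. GLCE, the epimerase of heparan sulfate chains, read 4.60, 4.55 and 5.21 in control and 6.98, 6.41 and 6.89 in Nnm, a stable rise of 1.97 ± 0.20 (adjusted p = 0.00262). GPC4, a heparan sulfate core protein, read 11.54, 11.60 and 11.30 in control and 9.27, 10.28 and 9.20 in Nnm, a stable fall (change -1.90, adjusted p = 0.00840). The linker enzyme gene B3GALT6 changed by -2.44, and UST, a sulfotransferase, was at least 2.34-fold higher. HAS3, a hyaluronan synthase gene, rose stably by 1.56 (adjusted p = 0.00912).

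Single junction and cytoskeleton genes changed as follows. CGN, the tight junction adaptor cingulin, read 6.95, 6.60 and 6.27 in control and 4.0, 5.78 and 4.29 in Nnm (change -1.92, adjusted p = 0.0269), and OCLN rose by 0.82. Of 33 focal adhesion and actin genes 3 fell and 0 rose, 7 with the block. MYL9, the regulatory light chain of contractile myosin, read 10.17, 9.24 and 10.25 in control and 7.78, 8.02 and 8.12 in Nnm (change -1.92, adjusted p = 0.0133). The lamin gene LMNA changed by -1.25 and the actin crosslinker gene ACTN4 by -0.92. For MYL9 all Nnm arrays fell alike, and control replicate 2 was the lowest control. Of 15 annexin genes 1 fell and 0 rose, 4 and 0 with the block, the 1 being ANXA3 (change -1.85, adjusted p = 0.0133).

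Solute carriers had 16 rises and 10 falls among 184 genes, and 27 and 22 with the block. The shares of 8.7% and 5.43% were near those over all genes (6.55% and 4.27%), though single changes were large. SLC16A14 read 2.39, 2.40 and 2.52 in control and 9.84, 8.05 and 9.48 in Nnm, a stable rise of at least 34.9-fold, and SLC22A23 was at least 2.10-fold higher. Of 28 genes of amino acid carrier families 2 rose and 1 fell, 4 and 4 with the block. SLC7A7 and SLC7A2, which carry cationic amino acids, rose by 1.70 and 1.58, and SLC6A20, a carrier of proline and other imino acids, read 7.65, 6.85 and 7.57 in control and 6.04, 5.57 and 5.97 in Nnm, a stable fall (change -1.49, adjusted p = 0.00893). Its fall was as large in replicate 2 as in the others. Potassium channels had 3 rises and 1 fall among 19, the leak channel genes KCNK3 and KCNK1 by 1.63 and 1.35, KCNS3 by 0.59 and KCNG3 lower by 1.91. Among receptors, ADGRG2 rose by 2.28 and GPRC5B by 1.71 (stable, adjusted p = 0.00912). Of xenobiotic enzymes, the quinone reductase gene NQO1 rose by 1.34 and TIPARP, a target and repressor of the aryl hydrocarbon receptor, fell from 12.20, 12.25 and 12.36 to 10.82, 11.23 and 10.46 (change -1.43, adjusted p = 0.0104, stable). Aldehyde dehydrogenases had 2 rises and 2 falls among 11, with ALDH3A2, the fatty aldehyde enzyme, stably higher by 1.47 and ALDH1B1 of the mitochondrial matrix lower by 1.58. NT5E, which makes adenosine from AMP at the cell surface, rose by 2.08.

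Several groups gave no call in limma without the block. Among 20 BCL2 family genes 0 were called, with 2 higher and 0 lower at an unadjusted p under 0.05, and among 27 Notch genes 0, with 4 and 0. The block gave 2 rises and 1 fall in the BCL2 family and 3 and 1 in the Notch list. The 9 tested cytochrome P450 genes had 0 calls, with 3 and 0 at an unadjusted p under 0.05, the 13 KLF factors 0, with 3 and 1, and the 14 polyamine genes 0, with 1 and 2. With the block 2 P450 genes rose and 0 fell, and the KLF and polyamine lists had 1 rise and 1 fall each. Of 28 cytosolic heat shock proteins and partners 1 was called, the fall of BAG1 (with the block 2 rises and 1 fall), and of 35 chaperones of the endoplasmic reticulum 1, the fall of CRELD2 (change -0.92, stable), with 1 rise and 4 falls under the block. Of 39 autophagy genes 2 rose and 0 fell (6 and 1 with the block), the kinase gene ULK2 by 1.35 and the receptor gene CALCOCO2 by 0.70.

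Some genes changed strongly in Nnm replicates 1 and 3 while replicate 2 lay within the control range, and they are given as values with no test. ROBO2, an axon guidance receptor, read 6.25, 7.24 and 6.09 in control and 2.28, 6.89 and 2.91 in Nnm. PLAUR, the urokinase receptor, read 6.26, 6.43 and 6.98 in control and 9.60, 6.74 and 9.97 in Nnm. DUSP10, a phosphatase of stress kinases, read 5.66, 5.61 and 6.14 in control and 8.81, 5.95 and 8.84 in Nnm. In each of them replicate 2 lay among the control values. The keratin gene KRT15 read 4.74, 4.72 and 4.82 in control and 7.68, 4.73 and 7.72 in Nnm. The GABA and taurine carrier gene SLC6A13, the ephrin receptor gene EPHA4, HSD17B8 and the lipid transporter gene ABCA12 showed the same pattern downwards, and TLL2, TMCC3 and LURAP1L upwards. What sets Nnm replicate 2 apart was not tested.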

How the data were processed

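RNA of HK-2 cells was measured on 12 Affymetrix arrays in 4 groups of 3 (Nnm or control, 24 h or 48 h). The deposited log2 values were made by the authors with GCRMA (version not stated), per the submitters' processing notes, and the set of arrays normalized together is not stated there. Such values would not show a change common to most genes, and the number of arrays limits precision. After 62 control probe sets were left out, those above log2 4 on at least 3 of 12 arrays were tested, 22829 in all, of which 19986 named 1 gene, 960 several and 1883 none in the platform annotation. Symbols of 19979 were updated through RefSeq (GRCh38.p14).

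One model of 4 groups over all 12 arrays was fitted in limma 3.58.1 (R 4.3.3), with 8 residual degrees of freedom, and every adjusted p comes from it. In simulated data of the same size, 50 probe sets each were changed by 1, 2, 3 and 4 log2 units. Of these 24, 42, 47 and 49 were called (48%, 84%, 94% and 98%), beside 14 false calls among 22829 probe sets. The simulated noise was independent, with neither a weak replicate nor deviations shared between arrays, so these rates need not hold for the real calls. Where a group mean was under log2 4, a fold is the brighter mean over that level, given as at least that fold. Same-numbered arrays shared their deviations in all 18 pairs (0.162 to 0.669, against a median of -0.208 in 36 other pairs), a pairing seen in the data and not stated in the labels. The 68 lists and 64 symbol families (1755 of 2184 entries tested) and the genes were chosen with earlier results of these data known, and lists are described by counts and medians only. The genes named come from a wider choice, and not every gene so chosen is named. It held the 12 largest rises and falls among called genes with no overlap of arrays and a brighter group mean of log2 6 or more. It also held the 8 in each direction with the largest gap between groups and up to 4 called members of each list. The 6 in each direction that moved only in Nnm replicates 1 and 3 and members needed for a list's roles were added. Genes already well described were left out or given only for values on each array. Among those left out are the falls of UCA1 (change -3.26) and KRT20 (change -3.24) and the rises of SLC16A9 (change 5.46) and DHRS2 (change 5.43). Alternatives were the arrays of 48 h alone, the replicate block, other filters, scalings, a variance trend, array weights, another choice of probe set and each array left out.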

Additional observations from a re-analysis of the deposited data

Results flagged for a closer look

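SNHG18, a host gene of small nucleolar RNAs, read 5.41, 5.37 and 5.29 in control and 5.88, 5.66 and 5.96 in Nnm at 48 h (change 0.47, adjusted p = 0.0346). At 24 h it read 5.44, 5.42 and 5.42 in control and 5.21, 5.42 and 5.21 in Nnm (change -0.15, adjusted p = 0.392), so the Nnm arrays lay above the control mean at 48 h and at or below it at 24 h. It is listed here for that opposite direction, and the test of the difference between the times in limma did not call it (adjusted p = 0.780).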

How the results depend on the processing

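The count of called genes depended strongly on how the spread was estimated. It was 59 (42 higher, 17 lower) with only the arrays of 48 h, 448 (260 and 188) with no filter on low values, where 19775 genes entered, 5628 (3019 and 2609) with array weights and 4914 (2735 and 2179) with both Nnm arrays numbered 2 left out. With the replicate block over all arrays it was 2509 (1448 and 1061), and with the block within 48 h it was 0, with 3721 genes at an unadjusted p under 0.05 in limma. The block over all arrays ended 0 of the 323 calls of genes chosen by the naming rule. Leaving out single arrays gave 108 to 3089 genes, 70 to 1770 higher and 38 to 1319 lower. A stricter filter, quantile scaling, median centring, a variance trend and the median probe set gave counts within 1.5 times of 1186. Of the 323, 21 were still called with only the arrays of 48 h, 311 after quantile scaling and 296 after median centring, and 0 changed direction under these settings, the block over all arrays, a variance trend, array weights or any single array left out. The causes of these differences were not tested.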

Other observations

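Some small pathways that belong to no list above were assembled after their values were seen and are given as values only. In the making of GDP-fucose, the donor for fucose on glycoproteins, the dehydratase gene GMDS changed by -1.81, the epimerase-reductase gene GFUS by -1.57, the salvage kinase gene FCSK by -1.35 and the mutarotase gene FUOM by -1.92, while the pyrophosphorylase gene FPGT changed by 1.78 and the core fucosyltransferase gene FUT8 by 1.20. The glucosyltransferase genes POGLUT1 and POGLUT2 changed by -1.56 and -2.19, and all of these were called. The fucose carrier gene SLC35C1 (0.06), the fucosyltransferase genes POFUT1 (0.16) and POFUT2 (-0.06) and POGLUT3 (0.19) were not.

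In NAD metabolism, NAPRT, which uses nicotinic acid, changed by -2.23, the NAD synthetase gene NADSYN1 by 0.97, the mitochondrial NAD kinase gene NADK2 by 0.98 and the carrier gene SLC25A51 by 1.75, all called, while NAMPT, which uses nicotinamide, had a change of -0.09 and was not. Also not called were QPRT (-0.39), NMNAT1 (-0.61), NMNAT3 (0.01), NMRK1 (-0.30), NADK (-0.14) and NNMT (0.46). A last set held genes of toll-like and interleukin 1 receptor signalling together with TRAF3IP2, which had a change of 1.82 (adjusted p = 0.0190). Not called were MYD88 (0.06), IL1RAP (0.09), IRAK1 (-0.07), IRAK3 (0.61), TRAF6 (0.10) and MAP3K7 (0.06). Neither were TLR6 (1.65), TAB2 (0.68), TAB3 (0.41), TOLLIP (-0.23), SIGIRR (0.32), TNFAIP3 (1.10) and IRAK2. The kinase gene IRAK2 read 6.07, 6.28 and 6.17 in control and 9.14, 6.31 and 9.11 in Nnm (adjusted p = 0.0843), so replicate 2 lay at the control level.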
